A study of Homo sapiens with 18 samples.

Results

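The metallothioneins and a small group of genes that move or sense zinc were followed in Hep3B cells, a human liver cancer line, through a fatty acid load and its treatment. The group comprised 10 gene rows, chosen by name from 36684 gene symbols: the metallothioneins MT2A, MT1E, MT1F, MT1G, MT1M and MT1X, the exporters SLC30A1 and SLC30A10, the importer SLC39A10, and the transcription factor MTF1. The rows were picked with their levels in these libraries already known and across all 6 groups, so their values are descriptions, and the calls a test made on them are given only as counts beside those of all genes.

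The 18 libraries were poly(A)-selected RNA-seq libraries, 3 per group, described in the study's methods as biological replicates. Con was untreated Hep3B. Model was Hep3B given free fatty acids (FFA), a mixture of oleic and palmitic acid. FUCO-0.5, FUCO-1 and FUCO-2 were FFA-loaded cells that also received fucoxanthin (FUCO), a carotenoid of brown algae, at 0.5, 1 or 2 µM, and RES was the FFA-loaded group given resmetirom, an agonist of thyroid hormone receptor beta. The FFA concentration, the exposure times and the resmetirom dose of these libraries were not given in the sources used here. All groups were the same carcinoma line, so none represents normal liver, and zinc itself was not measured.

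Metallothioneins are very small, cysteine-rich proteins that bind zinc, copper and cadmium. Their genes lie together on chromosome 16 and are switched on by MTF1, a zinc-finger protein that binds short metal response elements in promoters when free zinc rises. SLC30 proteins carry zinc out of the cytosol and SLC39 proteins carry it in, and SLC30A1, the zinc exporter of the cell surface, is itself a classical MTF1 target. In RefSeq (GRCh38.p14) the 6 metallothionein genes run from MT2A, which starts at base 56608584 of chromosome 16, through MT1E, MT1M, MT1F and MT1G to MT1X, which ends at base 56684196. SLC30A1, SLC30A10 and MTF1 lie apart on chromosome 1 and SLC39A10 on chromosome 2, and all 10 are annotated as protein-coding. In liver the metallothioneins are also known to respond to glucocorticoids, cytokines and oxidants.

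Libraries held between 16916688 and 23083498 counts. These totals exceed the average number of raw reads per sample given in the study's methods, and whether a count is a fragment or a single read is not settled by the sources used here. If both ends of a fragment were counted, the counting intervals below are too narrow. Levels are given as raw counts per library and as CPM, counts relative to the library total after scaling by the trimmed mean of M-values (TMM), with the mean ± SD over 3 libraries. The 8 hepatocyte markers examined were detected in every library, but their summed level differed between groups, at 57132 to 61468 CPM in Con, 47356 to 48148 in Model, 39612 to 50212 in FUCO-0.5, 41820 to 43627 in FUCO-1, 31988 to 36205 in FUCO-2 and 14094 to 14333 in RES. Most of the sum was ALB, at 33619 to 34276 CPM in Model and 7411 to 7747 in RES. The markers did not all move together. FGB was higher in RES, at 143 to 159 CPM, than in Model, at 110 to 112, while the others were lower. The 5 leukocyte markers summed to 49 to 70 counts a library in Con, 225 to 337 in Model, 203 to 233 in FUCO-2 and 124 to 144 in RES, of which LYZ gave 48 to 373 over all libraries and PTPRC 0 to 2. The 6 stromal and endothelial markers summed to 19 to 33 counts in Con, 46 to 55 in Model, 30 to 52 in FUCO-2 and 47 to 75 in RES. COL1A1 had 12 to 56 and PECAM1 3 to 36 in a library, and COL3A1 and CDH5 were at 0 in all. The part that these shifts play in the results below was not tested, and in bulk RNA a change in the number of expressing cells and a change in RNA per cell cannot be told apart.

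MT2A, the most widely expressed human metallothionein, was nearly silent in untreated cells and was highest with 2 µM FUCO. The raw counts in replicates 1, 2 and 3 were 1, 0 and 1 in Con, 13, 21 and 10 in Model, 49, 25 and 57 in FUCO-0.5, 80, 128 and 56 in FUCO-1, 530, 807 and 339 in FUCO-2, and 338, 259 and 287 in RES. The 6 groups stood in the order Con, Model, FUCO-0.5, FUCO-1, RES, FUCO-2, and in CPM no group overlapped its neighbour in that order. The step from FUCO-0.5 to FUCO-1 was very narrow, at 3.18 against 3.20 CPM in the nearest libraries. Their raw counts, 57 and 56, stood the other way round. Model and FUCO-0.5 were also close, at 1.17 against 1.31 CPM. The means were 0.0373 ± 0.0324 CPM in Con, 0.808 ± 0.324 in Model, 2.39 ± 0.972 in FUCO-0.5, 4.72 ± 2.01 in FUCO-1, 31.0 ± 11.7 in FUCO-2 and 13.7 ± 0.278 in RES (SD, n = 3 each).

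The step between doses was uneven for MT2A. Against Model its mean was 2.96-fold higher at 0.5 µM, 5.84-fold higher at 1 µM and 38.4-fold higher at 2 µM, and the last doubling of the dose alone carried a 6.58-fold difference. With RES the mean was 16.9-fold that of Model. On the log2 scale the fitted differences from Model were 1.55 (SE 0.45), 2.54 (SE 0.40) and 5.26 (SE 0.33) for the rising FUCO doses and 4.07 (SE 0.35) for RES. Con held 2 MT2A counts in all, so the comparison with untreated cells is only loosely bounded, with a ratio for Model of 22.0 (95% interval 5.75 to 188) and for FUCO-2 of 889 (246 to 7350). These exact binomial intervals use library totals and cover counting error only. The bounds below also use library totals, but set a group at 0 to 3 counts and take the other group's count as exact. They are not confidence limits.

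Spread within a group was also uneven. The 3 FUCO-2 libraries differed 2.19-fold from lowest to highest MT2A level, whereas the 3 RES libraries differed 1.04-fold. Replicate 2 was the highest and replicate 3 the lowest FUCO-2 library for MT2A, MT1E, MT1X and SLC30A1 alike.

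**Figure D1:**
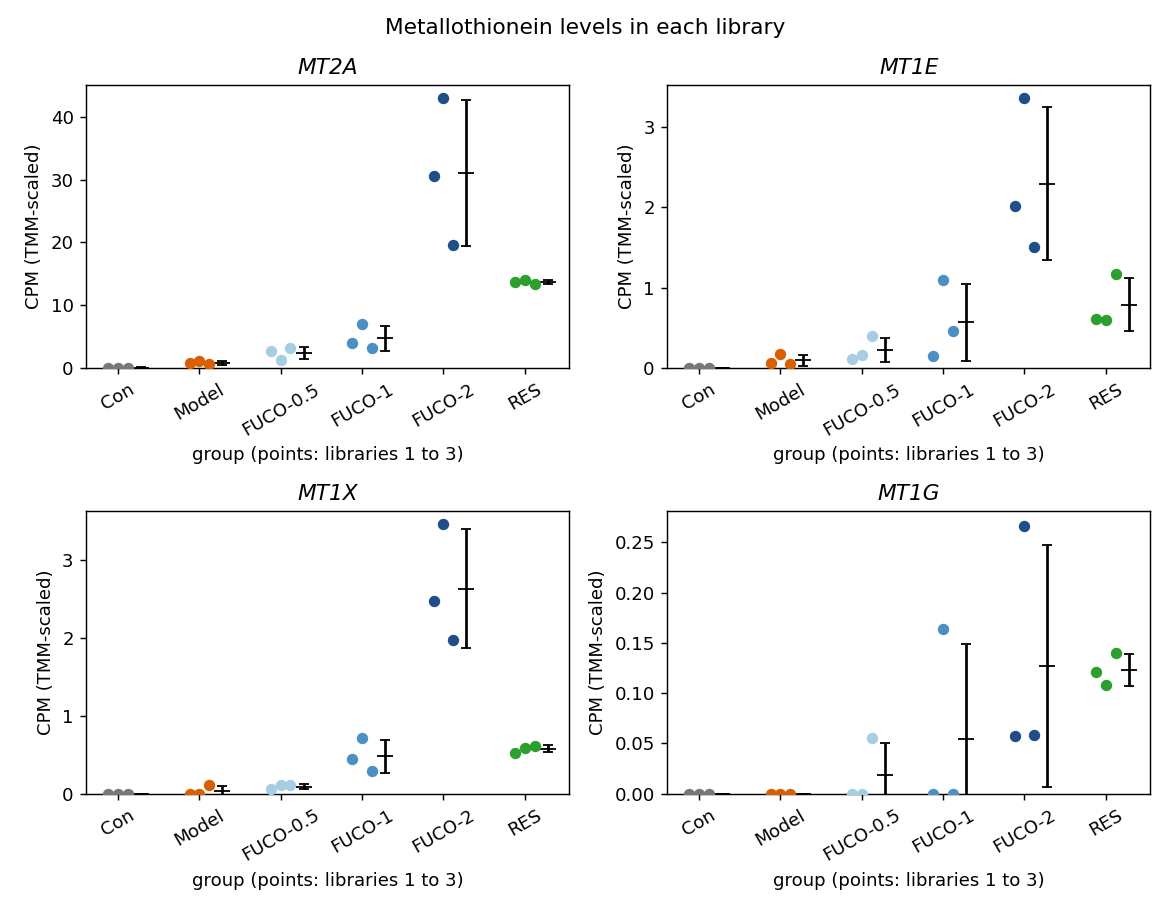
Levels of MT2A, MT1E, MT1X and MT1G in CPM (linear axes from 0, a separate scale for each gene) for every library of the 6 groups; points are the 3 replicates in order and the bars beside them the mean ± SD. For MT2A, MT1E and MT1X the FUCO-2 libraries lie above all others and the Con libraries lie at or near 0, and MT1G shows values of 1 to 5 counts a library in FUCO-2.

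MT1E and MT1X, close relatives of MT2A in the same cluster, had far fewer counts. MT1E had no count in Con, 1, 3 and 1 in Model, 2, 3 and 7 in FUCO-0.5, 3, 20 and 8 in FUCO-1, 35, 63 and 26 in FUCO-2, and 15, 11 and 25 in RES. Its mean went from 0.0920 ± 0.0649 CPM in Model to 2.29 ± 0.955 in FUCO-2 and 0.788 ± 0.328 in RES (SD, n = 3). The Con total was 0. With Con at a floor of 3 counts over the group, FUCO-2 was 43.9-fold and RES 15.8-fold higher. These bounds take the FUCO-2 and RES counts as exact. Only Con against Model and RES against FUCO-2 were separated among neighbours in the MT1E order, which was the order of MT2A.

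MT1X had no count in Con and 0, 0 and 2 counts in Model. It reached 1, 2 and 2 counts in FUCO-0.5, 9, 13 and 5 in FUCO-1, 43, 65 and 34 in FUCO-2, and 13, 11 and 13 in RES. The group order was again that of MT2A, with FUCO-0.5 below FUCO-1 and RES below FUCO-2 without overlap and the other neighbours overlapping. Against the 2 counts of Model the ratio was 2.53 (95% interval 0.414 to 26.6) for FUCO-0.5, 13.4 (3.37 to 116) for FUCO-1, 75.3 (20.5 to 628) for FUCO-2 and 17.1 (4.42 to 147) for RES. From FUCO-1 to FUCO-2 MT1E differed 4.05-fold and MT1X 5.48-fold. The MT1E value moved with single libraries, its fitted log2 difference of 2.04 becoming 1.56 without FUCO-1 replicate 1 and 2.95 without FUCO-1 replicate 2. Against Model it was 4.56 for FUCO-2 and 3.02 for RES, or 5.24 and 3.70 without Model replicate 2. Both MT1X counts of Model came from replicate 3, so without that library Model was at 0.

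The remaining metallothioneins were at the edge of detection. MT1G had no count in Con or Model, 1 in FUCO-0.5 and 3 in FUCO-1, all within a single library each, and then 1, 5 and 1 in FUCO-2 and 3, 2 and 3 in RES. With Model at a floor of 3 counts, FUCO-2 and RES were each 2.47-fold above it, a bound that takes their own totals as exact. MT1F had 1 count in a FUCO-1 library and 2 in a FUCO-2 library, and MT1M had 1 count, in FUCO-2 replicate 1, so no fold is given for either. All 9 further metallothionein rows found in the table from a list of 13 family genes and pseudogenes, MT1A and MT3 among them, were at 0 in all 18 libraries, as was the pseudogene row MT1P3.

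The metallothioneins are close paralogs, and how reads that match several of them were handled is not given in the sources used here, so the split of counts among the rows is uncertain. Their sum is less sensitive to that split. Summed over the 16 metallothionein rows (the 6 above, the 9 further ones and MT1P3), of which 6 had any count, the groups held 2, 51, 149, 326, 1952 and 980 counts in the order Con, Model, FUCO-0.5, FUCO-1, FUCO-2, RES. The summed level was 0.936 ± 0.347 CPM in Model, 36.1 ± 13.5 in FUCO-2 and 15.1 ± 0.216 in RES (SD, n = 3). The log2 ratio of the group means to Model was 1.54 for FUCO-0.5, 2.64 for FUCO-1, 5.27 for FUCO-2 and 4.02 for RES. Reads lost to multiple matches would be missing from the sum as well.

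The promoters of MT2A, MT1X and SLC30A1 are shown because these are the genes of the group that stood highest with FUCO-2 and RES and had a RefSeq promoter entry. Each run gives the 250 bases before the annotated start in GRCh38.p14, read in the direction of the gene. MT2A lies at chr16:56608334-56608583 on the plus strand, MT1X at chr16:56682220-56682469 on the plus strand and SLC30A1 at chr1:211579162-211579411 on the minus strand. Capitals mark the metal response element core, searched as TGCACNC or TGCGCNC on both strands.
MT2A: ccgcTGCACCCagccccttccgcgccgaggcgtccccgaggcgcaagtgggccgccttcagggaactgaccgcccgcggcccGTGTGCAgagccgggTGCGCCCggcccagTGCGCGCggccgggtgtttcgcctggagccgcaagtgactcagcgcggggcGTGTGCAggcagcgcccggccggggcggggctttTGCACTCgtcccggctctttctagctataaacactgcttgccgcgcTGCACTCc
MT1X: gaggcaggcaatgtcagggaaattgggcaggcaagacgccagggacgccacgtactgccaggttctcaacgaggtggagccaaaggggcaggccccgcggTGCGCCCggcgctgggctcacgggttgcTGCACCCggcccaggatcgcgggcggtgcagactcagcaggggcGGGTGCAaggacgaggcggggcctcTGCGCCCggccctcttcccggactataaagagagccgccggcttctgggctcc
SLC30A1: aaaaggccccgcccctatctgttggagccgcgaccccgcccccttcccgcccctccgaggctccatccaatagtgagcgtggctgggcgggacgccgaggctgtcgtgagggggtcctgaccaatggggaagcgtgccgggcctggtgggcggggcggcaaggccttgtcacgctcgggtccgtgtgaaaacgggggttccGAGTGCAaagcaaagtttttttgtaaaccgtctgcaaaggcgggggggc

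The core occurred 7 times before MT2A, 4 times before MT1X and once before SLC30A1. Of 35116 windows of the same length, 24.8% held at least 1 core, 0.37% held as many as MT1X and 0.0313% as many as MT2A. The SLC30A1 core, 43 to 49 bases before the start on the other strand, is thus a common finding. The letters were not present in the windows of SLC30A10 and SLC39A10, which have 2 each, or of MTF1. A match describes the sequence alone, and no binding was measured here.

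**Figure D2:**
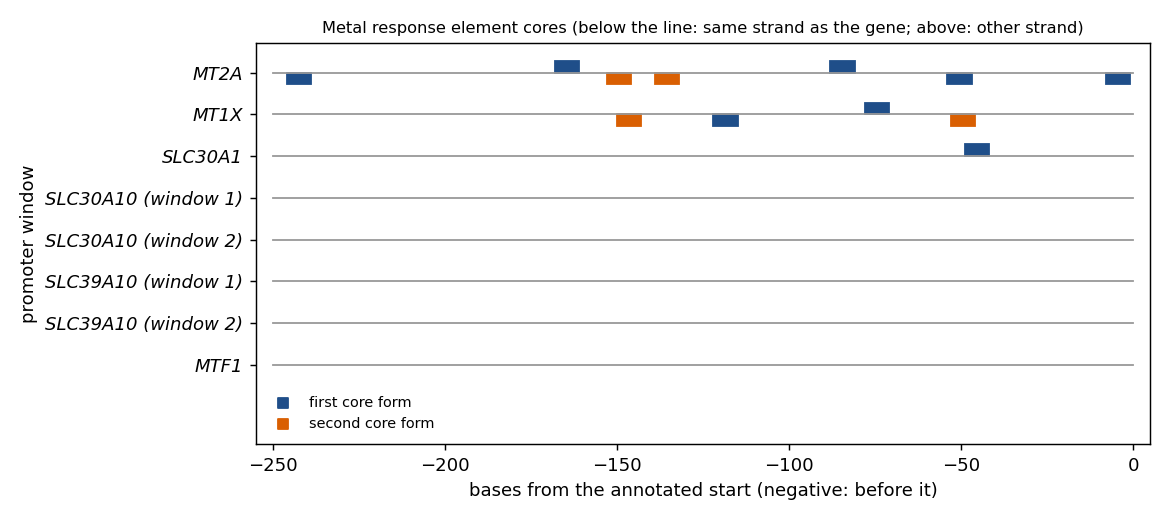
Position of the metal response element cores in the 250 bases before the annotated start (x axis, bases from the start) for the 6 genes of the group with a RefSeq promoter entry; boxes below a line are on the strand of the gene and boxes above it on the other strand, with the first core form (TGCACNC) in blue and the second (TGCGCNC) in orange. MT2A carries 7 boxes, MT1X 4, SLC30A1 1 and the other windows 0.

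SLC30A1, which exports zinc across the plasma membrane, followed the same group order as MT2A at a much smaller amplitude. Replicates 1, 2 and 3 held 224, 329 and 334 SLC30A1 counts in Con, 297, 334 and 303 in Model, 474, 437 and 511 in FUCO-0.5, 624, 555 and 397 in FUCO-1, 1028, 1228 and 808 in FUCO-2, and 1367, 894 and 881 in RES. Con and Model overlapped, at 16.9 ± 3.50 and 17.1 ± 1.29 CPM (SD, n = 3), where those of MT2A did not. All FUCO and RES libraries lay above all Model libraries. The means were 1.51-fold that of Model in FUCO-0.5, 1.64-fold in FUCO-1, 3.34-fold in FUCO-2 (57.1 ± 9.49 CPM) and 2.82-fold in RES (48.1 ± 7.05 CPM). FUCO-0.5 overlapped FUCO-1 and RES overlapped FUCO-2, so the levels fell into a low pair, a middle pair and a high pair of groups.

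SLC30A10, a member of the same family best known for exporting manganese, was highest in Model and lowest in RES. It had 2681, 2370 and 2591 counts in Con, 3452, 3380 and 3329 in Model, 2896, 3443 and 2665 in FUCO-0.5, 3067, 2552 and 2504 in FUCO-1, 2095, 2407 and 2354 in FUCO-2, and 1625, 1231 and 1334 in RES. Model stood at 185.9 ± 4.87 CPM against 145.5 ± 8.19 in Con, and its libraries did not overlap those of any other group. The gap to FUCO-0.5 was very narrow, at 180.3 against 180.0 CPM in the nearest libraries, whose raw counts, 3329 and 3443, stood the other way round. The mean was 87.5% of Model in FUCO-0.5, 77.9% in FUCO-1, 69.0% in FUCO-2 and 34.8% in RES (SD, n = 3). FUCO-1 overlapped Con, while FUCO-2 and RES were below both Con and Model. RES, with 64.7 ± 2.17 CPM, was also the group with the lowest summed hepatocyte markers, 14094 to 14333 CPM against 47356 to 48148 in Model. Among these markers FGB was higher in RES than in Model. The part of the marker shift in the SLC30A10 level was not tested.

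SLC39A10, a zinc importer of the plasma membrane, was highest in Con, at 178.4 ± 2.67 CPM, and lay between 131.4 ± 9.30 in RES and 150.3 ± 13.4 in FUCO-0.5 in the FFA-loaded groups (SD, n = 3). The Con libraries lay above those of all 5 other groups. The RES mean was 73.6% of Con, and the fitted difference of Model from Con was -0.26 (SE 0.090) on the log2 scale. None of the FFA-loaded groups that were neighbours in its order was separated from the next.

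MTF1 transcripts, which encode the metal sensor of this system, differed little between groups. The level was 10.8 ± 0.472 CPM in Con, 12.02 ± 0.279 in Model, 11.4 ± 1.50 in FUCO-0.5, 11.2 ± 0.514 in FUCO-1, 11.5 ± 2.47 in FUCO-2 and 13.95 ± 0.831 in RES (SD, n = 3). The RES libraries, with 365, 243 and 301 counts, lay above the Model libraries, with 214, 221 and 222, by a fitted log2 difference of 0.22 (SE 0.12). FUCO-2 had 168, 196 and 247 counts and spanned the Model range, so the group with the most metallothionein RNA was not separated from Model in MTF1 RNA. The activity and location of the protein were not measured.

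**Figure D3:**
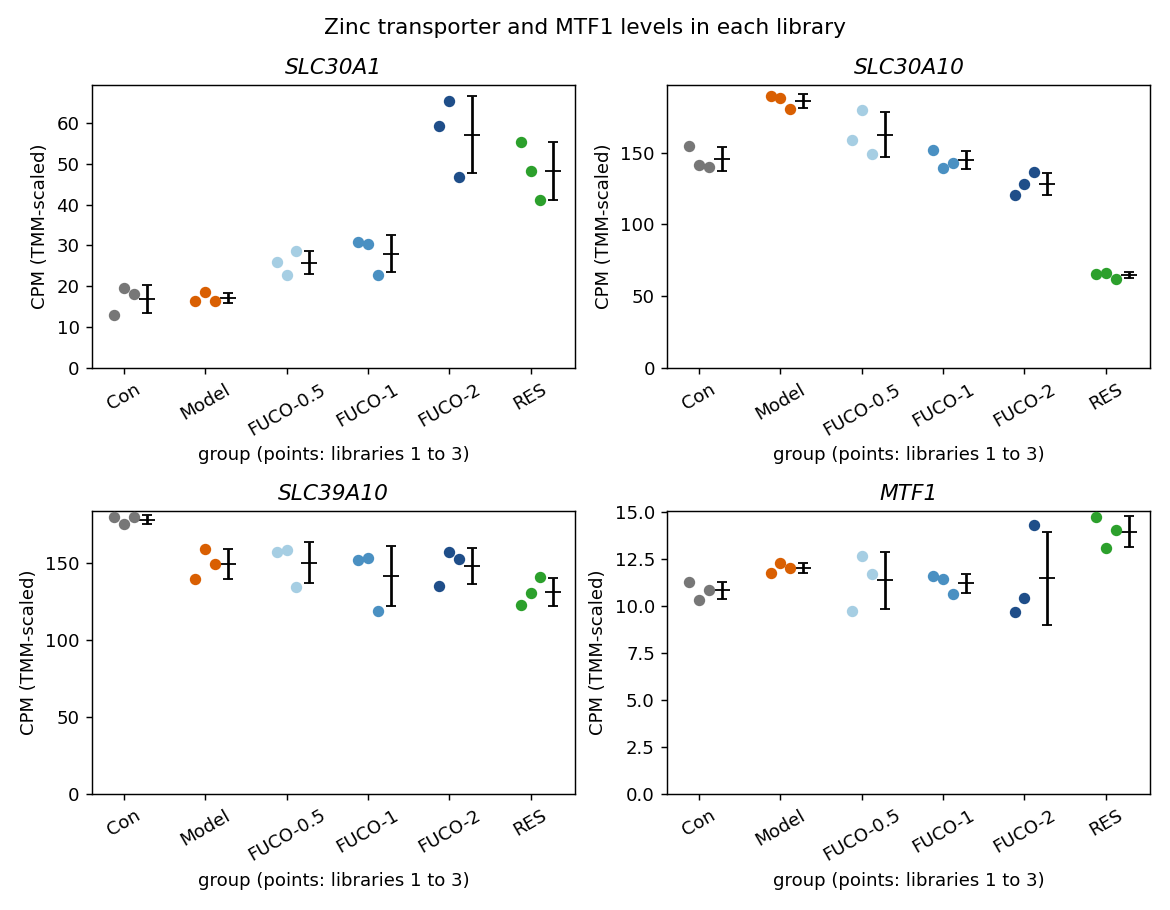
Levels of SLC30A1, SLC30A10, SLC39A10 and MTF1 in CPM (linear axes from 0, a separate scale for each gene) for every library of the 6 groups; points are the 3 replicates and the bars beside them the mean ± SD. SLC30A1 is highest in FUCO-2 and RES, SLC30A10 is lowest in RES, SLC39A10 is highest in Con, and MTF1 spans 10.8 to 13.95 CPM in its group means.

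For an account of the whole group, differentially expressed genes (DEGs) are those with an adjusted p below 0.05 and an absolute log2 fold change above 1 in edgeR's quasi-likelihood test. Of the 10 rows, 7 had enough counts to be tested, and MT1F, MT1G and MT1M did not. MT1E and MT1X reached the filter through the groups in which they were high, so the counts here are descriptions. In Model against Con, 1 of the 7 was called, MT2A, beside 1.95% of the 14557 genes tested. In the FUCO comparisons with Model the number was 0 at 0.5 µM (0.268% of all genes; 3 of the 7 at an unadjusted p under 0.05 in edgeR and 1 DEG in DESeq2), 2 at 1 µM (MT2A and MT1X, 0.495%) and 4 at 2 µM (MT2A, MT1E, MT1X and SLC30A1, 1.6%). In RES against Model 5 were called, MT2A, MT1E, MT1X and SLC30A1 on the higher side and SLC30A10 on the lower (9.91%). In FUCO-2 against FUCO-1 the number was 4, MT2A, MT1E, MT1X and SLC30A1 (0.577%). The rows whose 2 groups did not overlap numbered 5 of 7 in Model against Con (35.7% of all genes tested), 3 in FUCO-0.5 against Model (19.6%), 5 in FUCO-1 against Model (23.3%), 5 in FUCO-2 against Model (36.3%), 6 in RES against Model (64%) and 5 in FUCO-2 against FUCO-1 (20.3%). The 4 comparisons of treated cells with Model share its 3 libraries, and nothing is read from these counts because the rows were chosen on them.

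Part of these calls depended on single libraries. Without FUCO-0.5 replicate 2, FUCO-2 replicate 2 or FUCO-2 replicate 3, the number in FUCO-0.5 against Model was 1 in place of 0. It was 1 in FUCO-1 against Model without Model replicate 1, Model replicate 2 or FUCO-1 replicate 2, and 3 without FUCO-1 replicate 1. In FUCO-2 against FUCO-1 it was 2 without FUCO-2 replicate 2 and 3 without FUCO-1 replicate 3. The SLC30A1 difference there, 1.03 on the log2 scale, lay close to the threshold of 1 and was 0.92 and 0.90 in those fits.

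The median log2 difference over the 7 rows was 0.35 in Model against Con, 0.59, 0.71 and 1.74 for the rising FUCO doses against Model, 1.50 for RES against Model and 1.03 for FUCO-2 against FUCO-1. Over all genes tested the median lay between -0.0017 and 0.014 in the 6 comparisons. With 7 rows the median is the value of a single row, SLC30A10 in Model against Con and SLC30A1 in the other comparisons. The rows were chosen on these values, so nothing is read from their distance to all genes. For Model against Con, Con was at or under the floor for the metallothioneins. With MT2A at the lower end of its interval, MT1E at its bound and MT1X left out, the median was 0.25.

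MT2A and SLC30A1 tracked each other across the 18 libraries, with a Pearson correlation of 0.92 and a Spearman correlation of 0.93 on log2 CPM. Among 13076 other genes with a mean of at least 1 CPM, SLC30A1 ranked 11 by likeness to MT2A, and MT2A ranked 6 by likeness to SLC30A1. These points fall into 6 treatment groups of 3, so the value mainly describes shared group levels. MT2A and SLC30A1 parted in Con and Model, where MT2A differed and SLC30A1 did not. RES and FUCO-2 likewise overlapped in SLC30A1 but not in MT2A. So did FUCO-0.5 and FUCO-1, which MT2A separated only narrowly.

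**Figure D4:**
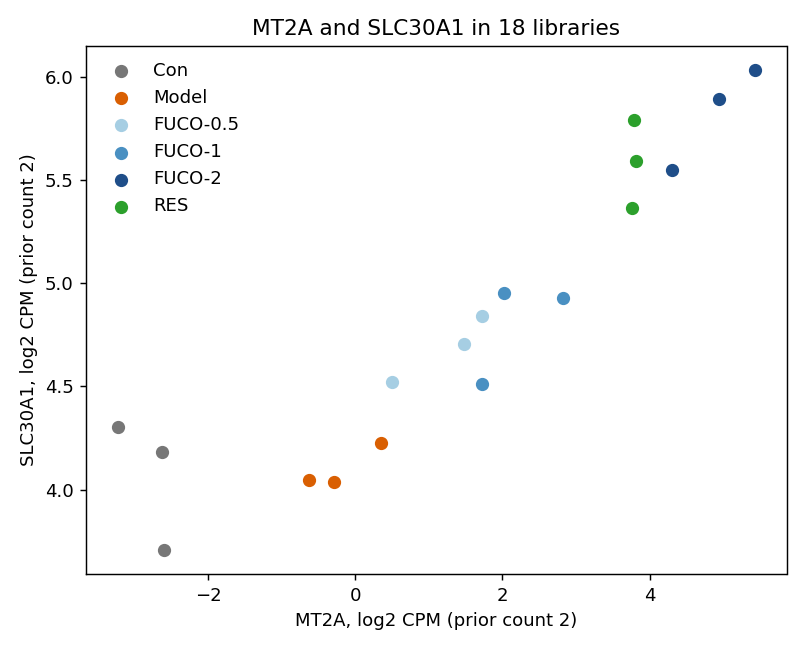
Level of SLC30A1 against that of MT2A, both in log2 CPM with a prior count of 2, in the 18 libraries coloured by group. The FUCO-2 and RES libraries lie at the upper right, with overlapping SLC30A1 values. RES lies lower than FUCO-2 along the MT2A axis, at 3.75 to 3.81 against 4.30 to 5.43. Con and Model differ along the MT2A axis with overlapping SLC30A1 values.

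The genes most like MT2A were LYAR (0.95), GPR143 (0.94), CDK6 (0.94), NFKB2 (0.93) and CTPS1 (0.93), and those most like SLC30A1 were ITPR1 (0.95), NTN1 (0.93), CCT4 (0.93), KDM1B (0.92) and SNX10 (0.92), by Pearson correlation over the 18 libraries. LYAR, a nucleolar protein, went from 25.0 ± 2.49 CPM in Con to 28.1 ± 1.19 in Model, 43.7 ± 3.26 in FUCO-2 and 42.3 ± 1.35 in RES (SD, n = 3). ITPR1, a calcium release channel of the endoplasmic reticulum, went from 7.85 ± 0.195 CPM in Model to 14.7 ± 1.23 in FUCO-2 and 16.0 ± 0.638 in RES. MTF1 stood far down both lists, with correlations of 0.26 and 0.22, and SLC30A10 had negative ones of -0.52 with MT2A and -0.66 with SLC30A1.

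To set these rows in context, 67 other genes in 6 lists were examined, of which 45 were tested: the remaining SLC30 and SLC39 genes, copper handling, iron handling, metal-inducible stress genes, and the other metallothioneins, none of which could be tested. The DEGs among the 45 are given with the share of DEGs over all genes tested. They numbered 2 in Model against Con (1.95%), 0 in FUCO-0.5 against Model (0.268%) and 1 in FUCO-1 against Model (0.495%). There were 5 in FUCO-2 against Model (1.6%), 11 in RES against Model (9.91%) and 2 in FUCO-2 against FUCO-1 (0.577%). For FUCO-0.5 edgeR gave 5 of the 45 an unadjusted p under 0.05, and DESeq2 also called 0 DEGs. At the adjusted p alone, 17.6% of all genes passed in Model against Con, 20.5% in FUCO-2 against Model and 49.4% in RES against Model. Adjusted p-values below are from edgeR over all 14557 genes.

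In FUCO-2 against Model 20.5% of all genes passed the adjusted p, in either direction. Of 6 further SLC30 zinc exporters tested, 1 passed it, on the lower side, a count too small to set apart from that share. That gene was SLC30A7, which loads zinc into the Golgi, with a log2 change of -0.27 (SE 0.086, adjusted p = 0.0261), and its call was lost in 3 of the 18 fits that left out a library, without Model replicate 2, FUCO-2 replicate 2 or FUCO-2 replicate 3. In RES against Model 5 of the 6 rose at the adjusted p alone, where 3545 of all 14557 genes rose. The 5 included SLC30A6 and SLC30A5, partners in the secretory pathway, with log2 changes of 0.37 (SE 0.087, adjusted p = 0.0011) and 0.33 (SE 0.083, adjusted p = 0.00181). SLC30A4, an exporter into vesicles, was the 1 DEG among them, with a log2 change of 1.37 (SE 0.41, adjusted p = 0.00786), from 4 to 7 counts a library in Model to 13 to 22 in RES. Its call in Model against Con rested on 18 counts against 3, a ratio of 6.01 (95% interval 1.75 to 31.8; adjusted p = 0.0305), and was lost without Con replicate 1, Con replicate 2, Model replicate 1 or Model replicate 3, where the adjusted p reached 0.129. All 3 Con counts came from replicate 3, and the fitted log2 change of 2.40 was 5.65 without it.

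Among 11 other SLC39 importers, SLC39A7, which releases zinc from the endoplasmic reticulum, rose with FFA. Its libraries lay below those of Model at every FUCO dose. Its log2 change was 0.44 in Model against Con (SE 0.078, adjusted p = 0.000264) and -0.66 in FUCO-2 against Model (SE 0.078, adjusted p = 2.2e-06). Against Model it was -0.27 in FUCO-0.5 (SE 0.077, adjusted p = 0.0869) and -0.28 in FUCO-1 (SE 0.077, adjusted p = 0.0452). The FUCO-1 call was lost in 11 of the 18 fits that left out a library. The SLC39A7 level was 79.1 ± 7.06 CPM in Con, 107.3 ± 4.16 in Model, 88.9 ± 6.40 in FUCO-0.5, 88.5 ± 6.08 in FUCO-1, 68.0 ± 3.46 in FUCO-2 and 109.8 ± 4.85 in RES (SD, n = 3). The FUCO-2 libraries all lay below those of the other groups, and RES overlapped Model. The other 10 did not pass in FUCO-2 against Model, where 20.5% of all genes passed the adjusted p.

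In RES against Model 2 importers were DEGs, both lower. SLC39A4, which takes up dietary zinc in the gut, went from 8.43 ± 1.34 CPM in Model to 1.56 ± 0.407, a log2 change of -2.44 (SE 0.21, adjusted p = 5.94e-10). SLC39A5, a zinc importer of liver, pancreas and gut, went from 178.1 ± 9.74 to 66.7 ± 1.91 CPM (SD, n = 3), a log2 change of -1.42 (SE 0.12, adjusted p = 5.51e-10). SLC39A8, which carries zinc and manganese, rose with a log2 change of 0.86 (SE 0.091, adjusted p = 3.1e-08). In all, 4 of the 11 rose and 3 fell in RES at the adjusted p alone, where 3545 of all 14557 genes rose and 3649 fell.

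Metal-inducible stress genes rose with FUCO-2. All 7 tested passed the adjusted p in FUCO-2 against Model, where 10.8% of all genes passed in that direction, and 4 were DEGs. The list holds genes already known to be high in these libraries, HSPA6 among them, so its count is not independent evidence. HSPA6, a strictly inducible HSP70, had 10 to 13 counts a library in Model and 112 to 203 in FUCO-2, a log2 change of 3.84 (SE 0.24, adjusted p = 2.05e-10). The other DEGs were SRXN1, which reduces oxidised peroxiredoxin (log2 change 1.26, SE 0.23, adjusted p = 0.00041), GCLM of glutathione synthesis (1.16, SE 0.15, adjusted p = 4.51e-06) and HSPA1A, another inducible HSP70 with a near-identical copy in HSPA1B (1.12, SE 0.14, adjusted p = 4.14e-06).

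In RES against Model the stress list was mixed, with 6 of 7 higher and 1 lower at the adjusted p alone. By that rule 3545 of all 14557 genes were higher and 3649 lower. The log2 change was 1.75 for SRXN1 (SE 0.22, adjusted p = 5.45e-07), 1.46 for the cystine importer SLC7A11 (SE 0.10, adjusted p = 1.44e-11) and 1.16 for thioredoxin reductase TXNRD1 (SE 0.10, adjusted p = 1.32e-09). It was 1.14 for both GCLM (SE 0.14, adjusted p = 5.42e-07) and HSPA6 (SE 0.31, adjusted p = 0.00367). HSPA1A was the member of the stress list that fell, with -0.95 (SE 0.16, adjusted p = 3.14e-05). HSPA6 was also higher in Model than in Con, with 34 counts against 3, a ratio of 11.3 (95% interval 3.57 to 57.7; adjusted p = 0.000618; fitted log2 change 3.30, or 4.12 without Con replicate 3), and in FUCO-1 than in Model, with a log2 change of 1.57 (SE 0.30, adjusted p = 0.00246). TXNRD1 rose in Model against Con, with a log2 change of 0.40 (SE 0.10, adjusted p = 0.00759), a call lost without Con replicate 2 or Con replicate 3.

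Of 11 iron genes and 10 copper genes, 3 passed the adjusted p in FUCO-2 against Model. Among all genes tested 20.5% passed, so the count does not stand above that share. HMOX1, the haem oxygenase that frees iron from haem, was the 1 DEG, going from 23.7 ± 1.71 CPM in Model to 79.7 ± 16.3 in FUCO-2 (SD, n = 3), a log2 change of 1.75 (SE 0.14, adjusted p = 5.67e-09). From FUCO-1 to FUCO-2 its log2 change was 1.17 (SE 0.13, adjusted p = 8.4e-06). STEAP3, an endosomal ferrireductase, rose with a log2 change of 0.55 (SE 0.11, adjusted p = 0.000931). ATOX1, a copper chaperone, fell with a log2 change of -0.33 (SE 0.096, adjusted p = 0.0182), a call lost without Model replicate 1, Model replicate 3, FUCO-2 replicate 1 or FUCO-2 replicate 3.

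In RES against Model both a copper and an iron gene of differentiated liver were DEGs on the lower side. The log2 change was -1.67 for CP, the plasma copper protein ceruloplasmin (SE 0.14, adjusted p = 5.35e-10), and -2.75 for TFR2, the hepatocyte iron sensor (SE 0.25, adjusted p = 2.25e-09). On the higher side it was 1.51 for STEAP2, a metalloreductase (SE 0.21, adjusted p = 1.45e-06), 0.45 for superoxide dismutase SOD1 (SE 0.071, adjusted p = 1.15e-05), 0.61 for the ferritin light chain FTL (SE 0.12, adjusted p = 0.000137) and 0.61 for the transferrin receptor TFRC (SE 0.14, adjusted p = 0.00107). The summed hepatocyte markers were lower in the same libraries, at 14094 to 14333 CPM against 47356 to 48148 in Model, although FGB was higher. The part of the markers in these changes was not tested.

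In Model against Con the log2 change was -0.87 for CP (SE 0.13, adjusted p = 4.46e-05), -0.75 for TFRC (SE 0.14, adjusted p = 0.000701) and -0.30 for NCOA4, the ferritin autophagy receptor (SE 0.081, adjusted p = 0.0122). It was 0.31 for SOD1 (SE 0.072, adjusted p = 0.00349), 0.41 for COMMD1, which takes part in copper export (SE 0.12, adjusted p = 0.0214), and 0.64 for TFR2 (SE 0.21, adjusted p = 0.0338). The calls of NCOA4 and COMMD1 were lost in 3 and that of TFR2 in 4 of the 18 fits without a library, each time including those without Con replicate 2 and Con replicate 3.

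**Figure D5:**
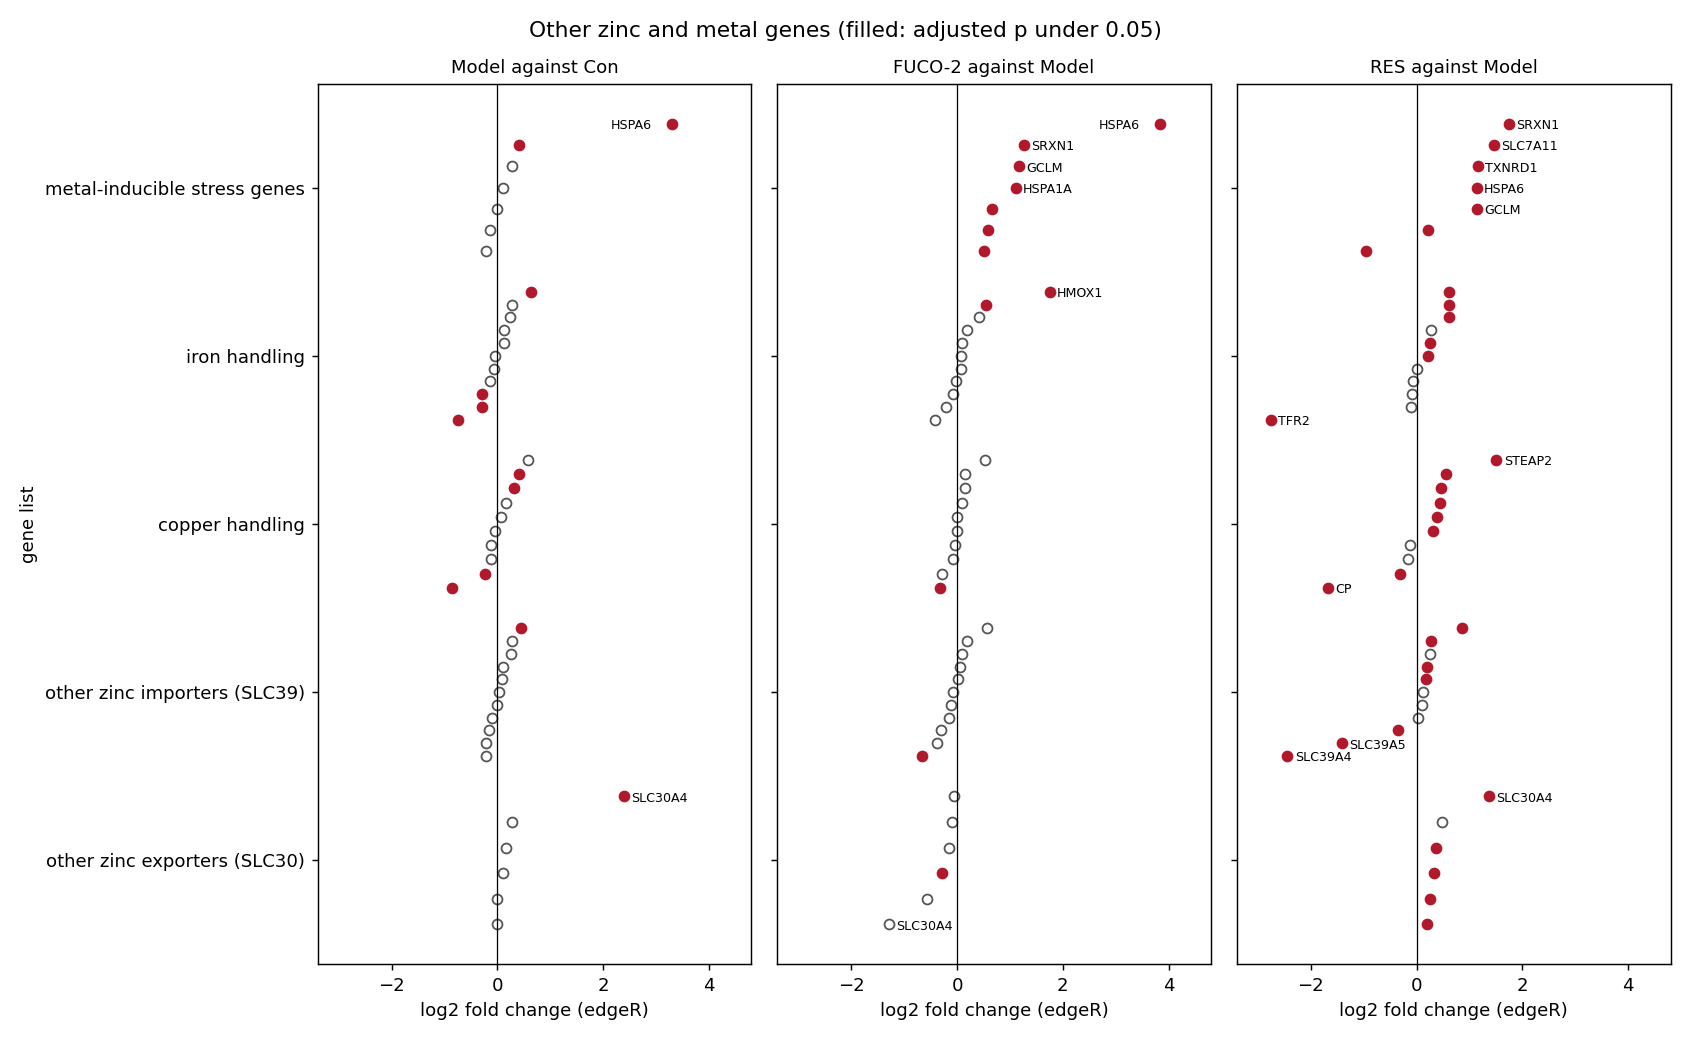
Fitted log2 fold changes of the 45 tested genes of the other lists (rows) in Model against Con, FUCO-2 against Model and RES against Model; filled points have an adjusted p under 0.05 and names mark changes beyond about 1. In FUCO-2 against Model the stress genes all lie to the right of 0, and of the zinc transporters SLC39A7 (-0.66) and SLC30A7 (-0.27) are filled while SLC30A4 (-1.29) is not, and in RES against Model SLC39A4, SLC39A5, CP and TFR2 lie far to the left. The value of SLC30A4 in Model against Con rests on 3 counts in Con.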

How the data were processed

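RNA-seq of 18 Hep3B libraries in 6 groups of 3 was deposited as 1 table of raw counts per gene symbol, made by the authors with STAR alignment to GRCh38.p14 and featureCounts. The strand setting and the handling of reads that match several genes are not given in the sources used here. Counts were analysed in R 4.3.3 with edgeR 4.0.16: genes were filtered by filterByExpr, which left 14557 of 36684 symbols, scaled by TMM, and fitted by the quasi-likelihood test over all 18 libraries with 1 term per group, with Benjamini-Hochberg adjustment over all genes tested. In all, 6 contrasts were made: Model against Con, the 4 treated groups against Model, and FUCO-2 against FUCO-1. DEGs had an adjusted p below 0.05 and an absolute log2 fold change above 1.

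Group totals of 3 counts or fewer were given as a ratio with an exact 95% interval, or as a bound. Named were all members, every DEG of the other lists, up to 3 genes per list with the smallest adjusted p in Model against Con, FUCO-2 against Model and RES against Model, and the 5 genes most like MT2A and SLC30A1. The members and lists were chosen with earlier results of these data known. Promoters and names came from RefSeq (GRCh38.p14), where 99.1% of symbols and 10 of 10 members matched. The tests were checked on simulated data. Changes were placed only in genes with a mean of at least 1 CPM, so rows with fewer counts were not covered. No 2 replicates agreed within the sampling noise of independent counts. That noise would be larger if both ends of a fragment were counted. Alternatives covered the scaling, filter, tool (DESeq2 1.42.0), samples fitted, replicate block, fold threshold, prior count, likeness measure and each library left out.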

Additional observations from a re-analysis of the deposited data

How the results depend on the processing

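No called gene changed sign under any alternative run. For the rows tested among the 10, the number of DEGs moved as follows. With no filter FUCO-0.5 against Model gave 1, and the medians were 0.081 (Model against Con), 0.30, 1.30 and 2.33 (rising FUCO doses) and 0.86 (RES). Requiring at least 10 counts in every library kept 4 of the 10 and none of the metallothioneins, so the counts were 0 (Model against Con), 0 (FUCO-1), 1 (FUCO-2), 2 (RES) and 1 (FUCO-2 against FUCO-1), with medians of 0.084, -0.034, -0.085, -0.034, 0.00978 and 0.051 for Model against Con, the rising FUCO doses, RES and FUCO-2 against FUCO-1. DESeq2 gave 1 for FUCO-0.5, 1 for FUCO-1 and 2 for FUCO-2 against FUCO-1. With only the 2 groups fitted the counts were 0 for Model against Con, 1 for FUCO-0.5 and 1 for FUCO-1, with medians of 0.084, 0.0099 and -0.0699, where the filter kept 4, 5 and 5 rows. Without the fold threshold they were 2, 1 and 4 for Model against Con, FUCO-0.5 and FUCO-1. Replicate numbers did not pair the libraries (8 of 18 pairs agreed best with their own number, r from -0.164 to 0.155), and the replicate block changed 1 count, FUCO-0.5 against Model, to 1.

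Among the other zinc and metal genes, Model against Con gave 0 with at least 10 counts in every library, 1 with DESeq2 and 1 with 2 groups, FUCO-1 against Model gave 0 and FUCO-2 against FUCO-1 gave 1 with at least 10 counts, and without the fold threshold the numbers were 12, 3, 12, 33 and 10 for Model against Con, FUCO-1, FUCO-2, RES and FUCO-2 against FUCO-1. By Spearman correlation 1 of the 5 genes most like MT2A and 2 of the 5 most like SLC30A1 were the same.

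Over the 18 fits that left out a library, the DEGs among the 10 rows ranged from 0 to 1 in FUCO-0.5 against Model, 1 to 3 in FUCO-1 against Model and 2 to 4 in FUCO-2 against FUCO-1. Those among the other genes ranged from 1 to 3 in Model against Con, with 1 without Con replicate 2, Model replicate 1 or Model replicate 3. The log2 ratio of summed metallothioneins ranged from 4.06 to 5.11 for Model against Con, 1.24 to 1.89, 2.19 to 2.99 and 4.96 to 5.62 for the rising FUCO doses against Model, 3.85 to 4.36 for RES against Model and 2.32 to 3.08 for FUCO-2 against FUCO-1. With 2 metallothionein counts in all of Con and 51 in Model, depth limits every fold against those groups, and the cause of the other shifts was not tested.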
